A study of Mus musculus with 83 samples.

Results

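Neurotrophins are secreted growth factors that neurons use to signal to one another. Bdnf encodes brain-derived neurotrophic factor, which acts through the receptor tyrosine kinase TrkB (Ntrk2), and Ntf3 encodes neurotrophin 3, which acts mainly through TrkC (Ntrk3). Ngfr encodes the p75 receptor, which binds all neurotrophins and their uncleaved precursors, and Sort1 encodes sortilin, a sorting receptor that carries proBDNF into the secretory pathway and serves as a coreceptor of p75. In cortex, BDNF is known as an activity-dependent signal made mostly by excitatory neurons, and interneurons are among the cells that respond to it through TrkB.

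These 6 genes were taken by symbol from a table of 48795 genes, and all 6 were found. The table holds RNA-seq counts of 83 pools of neurons from the frontal cortex of male C57BL/6 mice, untreated and without a transgene as far as the labels say, either young (2 months) or old (22 months). Each pool held 125 cells cut by laser from frozen sections of 14 µm after staining for Slc17a7 (pyramidal cells, PYC), Pvalb (PV), Sst (SST) or Vip (VIP). Each type had 12 old pools and 9 young pools, except PV with 8 young pools. The labels give no mouse for a pool, so pools of the same type or of different types may share an animal. The p-values below measure the spread between pools, which need not be the spread between mice.

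The smallest library held 1.46 M counts, the median library 6.99 M and the largest 27.2 M. Summed marker lists of PV, SST and VIP cells did not overlap between their own pools and the others, but the 12 pyramidal markers did: they summed to 3131 to 6054 CPM (counts scaled to the library total, expressed per M counts) in PYC and to 2257 to 4780 in VIP. Old VIP libraries 9 and 11 had SST marker sums of 2527 and 2505 CPM, beside a median of 668 over VIP libraries. Markers of cells other than these neurons were also counted. The summed level of 16 astrocyte markers was 1420 to 3553 CPM in PV pools and 2760 to 4498 CPM in VIP pools. None of the 16 lacked counts in any type. Slc1a2 made up the larger part of this sum, with means of 1355 of 2473 CPM in PV and 2088 of 3682 in VIP. The same sum is the astrocyte covariate used below. Slc17a7, the vesicular glutamate transporter that marked PYC cells, was at 822 ± 278 CPM (SD, n = 21) in PYC, 471 ± 120 (n = 21) in VIP, 348 ± 72.5 (n = 21) in SST and 257 ± 75.1 (n = 20) in PV. In 6 libraries mitochondrial genes held under 3% of the counts.

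The members differ in how their genes are built, which bears on what a gene-level count can show. Coordinates are of GRCm38 with GENCODE M21. Bdnf (ENSMUSG00000048482) lies at chr2:109674700-109727007 on the plus strand and has 11 annotated transcripts. Several of them start at alternative first exons that share 1 protein-coding exon, so the count pools all of these starts. Ntrk2 (ENSMUSG00000055254, chr13:58806569-59133970, plus strand, 10 transcripts) and Ntrk3 (ENSMUSG00000059146, chr7:78175959-78738012, minus strand, 20 transcripts) encode full-length receptors and truncated forms without a kinase domain, and the counts pool both. Ntf3 (ENSMUSG00000049107) lies at chr6:126101412-126166910 (minus strand), Ngfr (ENSMUSG00000000120) at chr11:95568818-95587735 (minus strand) and Sort1 (ENSMUSG00000068747) at chr3:108284082-108361511 (plus strand).

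Of 7 Bdnf promoter windows in RefSeq (GRCm38.p6, from 250 bases before to 50 after a start), 1 held the letters TGACG on either strand, the core of the cyclic AMP response element that CREB binds. None held the whole element TGACGTCA. Of 32851 windows of 300 bases, 20.8% held the core and 1.79% the whole element. The stretch before that start is shown because regulators of Bdnf through CREB are among the genes measured below. It runs from chr2:109692286-109692435 on the plus strand, lies within 5 Bdnf transcripts and overlaps no annotated exon. The capitals mark the core on the opposite strand, whose first letter is 35 bases before the start.
Bdnf: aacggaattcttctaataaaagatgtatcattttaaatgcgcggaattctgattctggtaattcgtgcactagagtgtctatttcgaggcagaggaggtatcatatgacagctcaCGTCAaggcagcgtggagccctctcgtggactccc
A match of letters is a description of this stretch and shows no binding. The windows found for Ntf3 (2), Ntrk2 (1) and Ngfr (1) held no core.

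The levels split the 6 genes into an abundant set and a sparse set. Ntrk2, Ntrk3 and Sort1 were counted in every one of the 83 libraries. Bdnf had counts in 20 of 21 PYC libraries, 16 of 21 VIP, 15 of 21 SST and 11 of 20 PV libraries. Ntf3 and Ngfr were at 0 in most libraries of every type. Per kilobase of all annotated exons, Sort1 stood highest in each type (70.2 ± 17.5 CPM per kb in PYC and 38.4 ± 8.08 in SST), followed by Ntrk2 (31.7 ± 5.74 in PYC) and Ntrk3 (16.2 ± 4.12 in PYC), with Bdnf at 3.39 ± 2.69 in PYC (SD, n = 21 each). The order of Sort1 and Ntrk2 depended on the length used: per kilobase of the longest transcript, Ntrk2 was above Sort1 in PV, SST and VIP (78.8 ± 10.7 against 42.5 ± 8.95 in SST) but not in PYC (70.0 ± 12.7 against 77.7 ± 19.4).

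**Figure D1:**
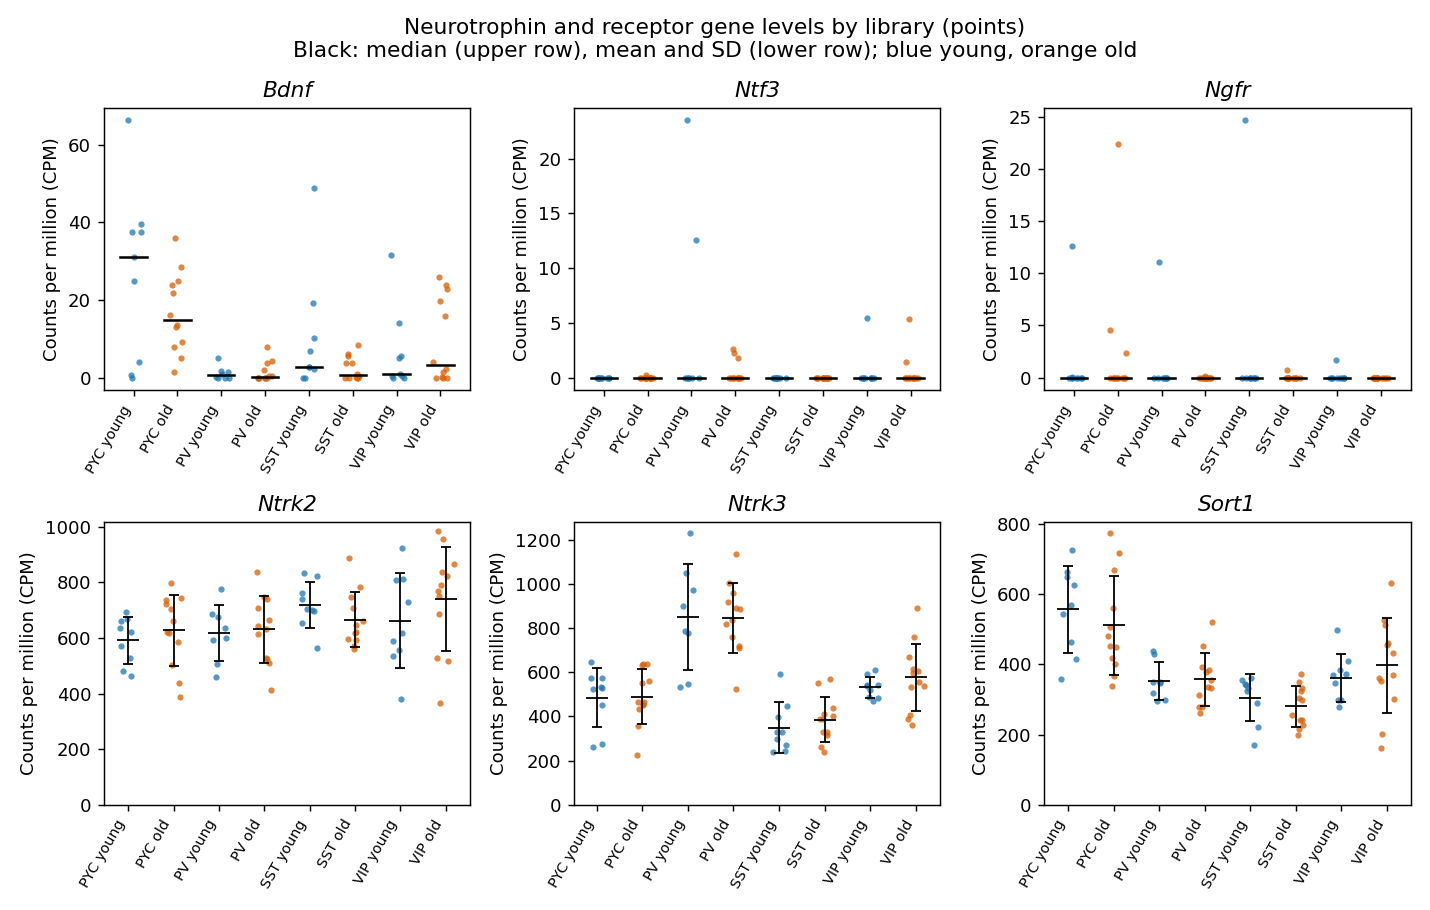
Level of each gene in CPM (vertical axis, linear) in every library (points, blue young and orange old) of the 8 groups of neuron type and age, with the median (upper row) or the mean and SD (lower row) in black. Bdnf was highest in PYC, Ntrk3 in PV and Sort1 in PYC, Ntrk2 was between 365 and 986 CPM in all groups, and most Ntf3 and Ngfr libraries lie at 0.

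Bdnf, the ligand of TrkB, was highest in pyramidal pools and lowest in PV pools. The 9 young PYC libraries ran from 0 to 66.2 CPM with a median of 31.0, and the 12 old ones from 1.44 to 36.0 with a median of 14.8. In PV, the median was 0.595 CPM in young (0 to 5.07) and 0.134 in old libraries (0 to 7.96). No PV library passed 10 CPM, while 14 of 21 PYC libraries did. SST libraries had a median of 2.63 CPM in young (0 to 48.9) and 0.684 in old (0 to 8.48), and VIP libraries 0.956 in young (0 to 31.5) and 3.09 in old (0 to 25.9). The ranges of all 4 types overlap, and within VIP a group of 7 libraries above 10 CPM stood beside 5 at 0.

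Each type was tested against the mean of the other 3 with edgeR's quasi-likelihood F-test over all 83 libraries, with p-values adjusted by Benjamini-Hochberg over 19208 genes and an adjusted p under 0.05 called a pass. Against this test, 13.3% of all genes differed in PYC (8.02% higher, 5.31% lower), 17% in PV (8.29% higher, 8.75% lower), 8.01% in SST (5.46% higher, 2.55% lower) and 12% in VIP (7.79% higher, 4.18% lower). Bdnf, Ntrk2, Ntrk3 and Sort1 were tested, and 2 of the 4 passed in PYC, 2 in PV, 2 in SST and none in VIP. Ntf3 and Ngfr did not pass the filter on low counts and were not tested.

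Bdnf was higher in PYC by 2.53 ± 0.61 on the log2 scale (edgeR estimate ± SE, adjusted p = 0.00114). It was lower in PV, with a log2 difference of -2.67 ± 0.83 (edgeR, adjusted p = 0.0144). The differences in SST (-0.38 ± 0.69) and VIP (0.52 ± 0.65) did not pass. Without young VIP library 9 the values were -0.22 in SST and 0.026 in VIP, and without young SST library 9 -0.84 and 0.68. Both calls were made in all 83 refits that left out 1 library, and by DESeq2 and limma-voom, which put the PYC difference at 3.57. Neither was made in the young or the old libraries alone: for PYC the log2 difference was 2.66 in young (adjusted p = 0.0640) and 2.40 in old libraries (adjusted p = 0.0664), and for PV -3.19 (adjusted p = 0.116) and -2.18 (adjusted p = 0.245). With the summed astrocyte markers as a covariate, the PV difference was -2.69 with an adjusted p of 0.0740. That covariate also lowered the number of all genes that passed in PV, from 3273 to 2055.

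Between pairs of types, the order of Bdnf by fitted level was PYC, VIP, SST, PV, and no neighbours in it differed beyond the test. The places of VIP and SST were not stable: type medians were 2.21 CPM in VIP and 2.58 in SST, and in young libraries the difference from the rest was -0.21 in VIP and 0.74 in SST. PYC exceeded PV by 3.90 ± 0.96 on the log2 scale (edgeR, adjusted p = 0.00130), where 16.8% of all genes differed. The call was lost in old libraries alone (adjusted p = 0.0637). VIP exceeded PV, with PV minus VIP at -2.39 ± 0.89 (edgeR, adjusted p = 0.0488; 16.8% of all genes). That call was lost with limma-voom (adjusted p = 0.141), with the library total (0.0603), the astrocyte markers (0.184) or the F number of the sample titles (0.0863) in the model, and in young (0.395) or old (0.218) libraries alone. PYC did not pass against SST (2.18 ± 0.85, adjusted p = 0.0863; 10.8% of all genes) or against VIP (1.51 ± 0.83, adjusted p = 0.312; 9.46% of all genes), although limma-voom and edgeR's newer method called both. In such pools, fewer cells that express a gene and less RNA of it per cell cannot be told apart.

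The mean level of Slc17a7, like that of Bdnf, was highest in PYC and lowest in PV. Within types, log2 Bdnf and log2 Slc17a7 (CPM + 1) had a Pearson r of 0.35 in PYC (permutation p = 0.121, n = 21), -0.25 in PV (permutation p = 0.297, n = 20), 0.39 in SST (permutation p = 0.0775, n = 21) and -0.44 in VIP (permutation p = 0.0442, n = 21). Spearman's rho was 0.36 in PYC (permutation p = 0.109), -0.24 in PV (permutation p = 0.309), 0.34 in SST (permutation p = 0.126) and -0.59 in VIP (permutation p = 0.00563). Adjusted over the 8 relations computed, VIP passed with rho (adjusted p = 0.0450) and not with r (adjusted p = 0.310). Without the 2 libraries farthest from the median of Slc17a7, r was 0.28, -0.071, 0.36 and -0.55 in the same order. Within old and young libraries it was 0.62 and 0.22 in PYC, -0.30 and -0.14 in PV, 0.41 and 0.23 in SST, and -0.63 and -0.29 in VIP. The part of pyramidal RNA in the Bdnf counts of interneuron pools was not tested.

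**Figure D2:**
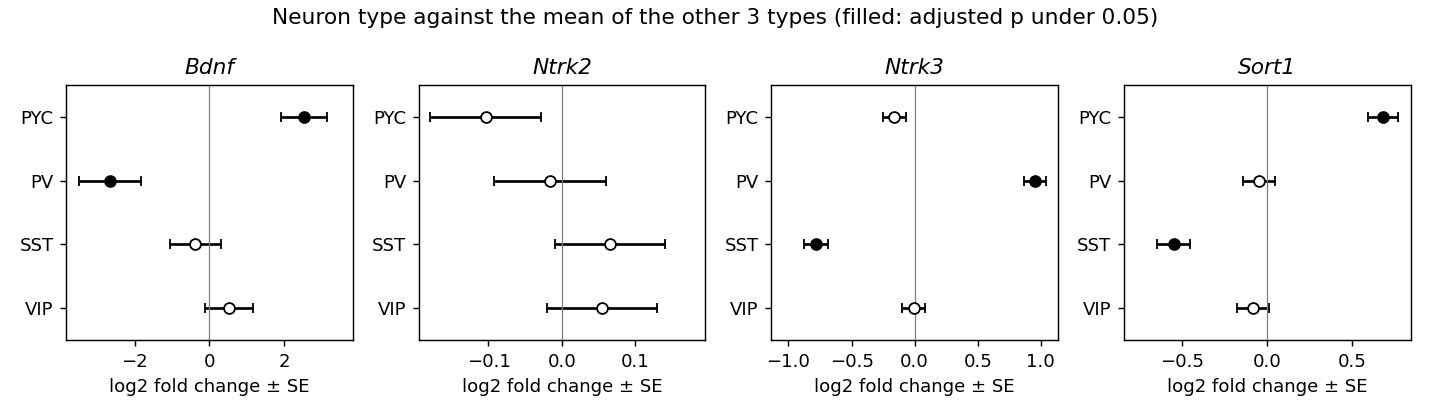
Log2 difference (horizontal axis, estimate ± SE) of each neuron type from the mean of the other 3 for the 4 genes tested. Filled points passed at an adjusted p under 0.05: Bdnf in PYC and PV, Ntrk3 in PV and SST, Sort1 in PYC and SST, and no Ntrk2 value; the axes differ between genes.

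Ntrk3, the receptor of neurotrophin 3, was highest in PV pools. Its 8 young PV libraries ran from 532 to 1230 CPM with a median of 842, and its 12 old ones from 523 to 1137 with a median of 861. SST libraries lay lowest, from 239 to 592 CPM in young (median 329) and from 241 to 568 in old (median 387). PYC medians were 528 CPM in young (260 to 645) and 466 in old (227 to 638), and VIP medians 538 in young (471 to 611) and 576 in old (361 to 889). The ranges of PV and SST overlapped between the lowest PV value (523 CPM) and the highest SST value (592 CPM).

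Against the other types, Ntrk3 was higher in PV by 0.95 ± 0.087 on the log2 scale (edgeR, adjusted p = 9.82e-18) and lower in SST, at -0.78 ± 0.094 (edgeR, adjusted p = 5.41e-11). The order was PV, VIP, PYC, SST, and only VIP and PYC did not differ beyond the test (PYC minus VIP -0.11 ± 0.11, adjusted p = 0.664). PV exceeded VIP by 0.72 ± 0.11 (adjusted p = 1.15e-07), SST by 1.30 ± 0.11 (adjusted p = 1.87e-18; 10.9% of all genes differed) and PYC, with PYC minus PV at -0.84 ± 0.11 (adjusted p = 7.03e-10), all by edgeR. PYC exceeded SST by 0.47 ± 0.11 (edgeR, adjusted p = 0.00101), and SST minus VIP was -0.58 ± 0.11 (edgeR, adjusted p = 6.83e-05; 6.63% of all genes). The PV and SST differences from the rest also passed within each age: the PV difference was 1.005 in young and 0.86 in old libraries, and the SST difference -0.83 and -0.75. PYC against SST was lost in young libraries (adjusted p = 0.0917) and with limma-voom (adjusted p = 0.0869), and so was SST against VIP (adjusted p = 0.0956 and 0.125). In all, 4 non-coding genes of the annotation overlap Ntrk3, 2 of them on the opposite strand, with at most 516 counts in a library; whether counting used the strand is not given.

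Ntrk2, the receptor of BDNF, had no called difference between types. Its group medians ran from 617 CPM in young VIP to 779 CPM in old VIP libraries. Young PYC libraries ran from 463 to 695 CPM, old PYC from 386 to 798, young PV from 460 to 776 and old PV from 414 to 838. Young SST libraries ran from 564 to 835 CPM, old SST from 561 to 887, young VIP from 381 to 925 and old VIP from 365 to 986. All 8 ranges overlap. The log2 difference from the other types was -0.10 ± 0.075 in PYC, -0.016 ± 0.077 in PV, 0.065 ± 0.075 in SST and 0.055 ± 0.075 in VIP. None passed in edgeR (smallest adjusted p = 0.474), nor did any of the 6 pairs of types.

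Ntrk2 is also known in astrocytes, largely as the truncated receptor. The astrocyte marker sum set against it here is mainly Slc1a2. Across libraries, log2 Ntrk2 and the log2 sum of astrocyte markers had a Pearson r of 0.051 in PYC (permutation p = 0.828, n = 21), 0.20 in PV (permutation p = 0.404, n = 20), -0.24 in SST (permutation p = 0.289, n = 21) and 0.077 in VIP (permutation p = 0.741, n = 21). Spearman's rho was 0.053 (permutation p = 0.817), 0.23 (permutation p = 0.316), -0.25 (permutation p = 0.271) and -0.042 (permutation p = 0.857) in the same order, and no relation passed after adjustment (smallest adjusted p over both measures for Ntrk2 = 0.422). Without the 2 farthest libraries r was -0.026, 0.050, -0.40 and -0.31. In old and young libraries apart it was 0.078 and 0.15 in PYC, 0.13 and 0.51 in PV, -0.15 and -0.52 in SST, and 0.54 and -0.43 in VIP.

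The balance of TrkC to TrkB counts within a library does not depend on how libraries are scaled. The ratio of Ntrk3 to Ntrk2 counts was 1.38 ± 0.318 in PV (SD, n = 20), 0.841 ± 0.273 in VIP (n = 21), 0.831 ± 0.299 in PYC (n = 21) and 0.537 ± 0.136 in SST (n = 21). It exceeded 1 in 17 of 20 PV libraries, 5 of 21 PYC, 4 of 21 VIP and 0 of 21 SST libraries. The lowest PV ratio was 0.884 and the highest SST ratio 0.835, each from a single library. How many other gene ratios separate PV from SST libraries was not counted. Young and old libraries had close means within each type, 1.38 and 1.38 in PV, 0.836 and 0.827 in PYC, 0.844 and 0.838 in VIP, and 0.485 and 0.577 in SST. The ratio compares genes of different length, so its value of 1 does not mean equal numbers of molecules.

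**Figure D3:**
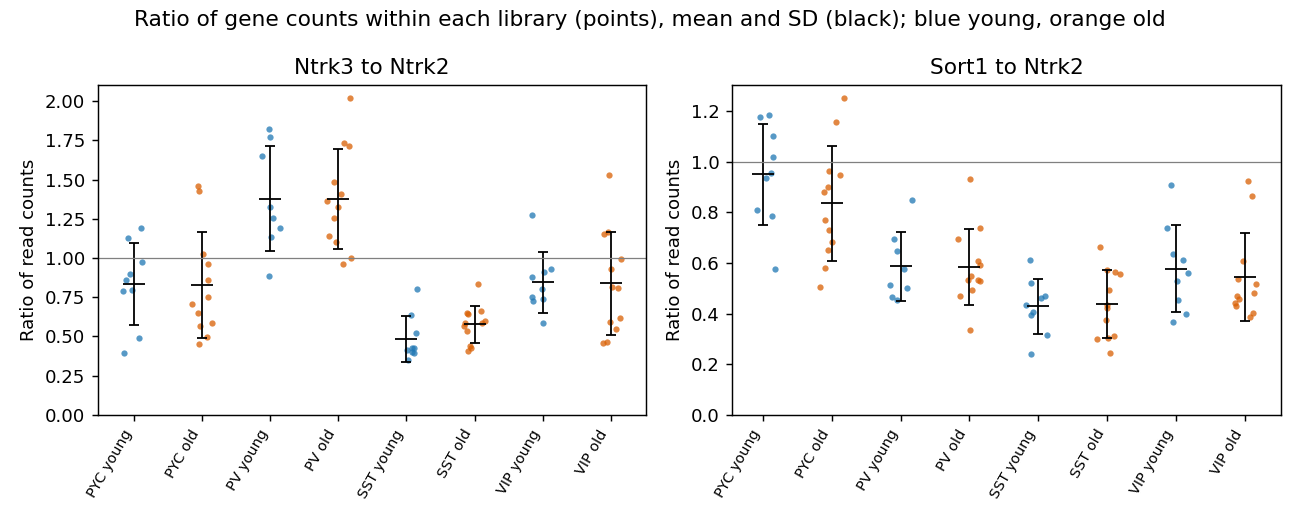
Ratio of read counts within each library (vertical axes, linear from 0) for Ntrk3 to Ntrk2 (left) and Sort1 to Ntrk2 (right), by neuron type and age, with the mean and SD in black and a grey line at 1. The Ntrk3 ratio lies between 0.884 and 2.02 in PV and between 0.347 and 0.835 in SST; the Sort1 ratio exceeds 1 in 6 PYC libraries and in none of the other types.

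Sort1, the sorting receptor, was highest in pyramidal pools. Young PYC libraries ran from 359 to 727 CPM (median 571) and old PYC from 339 to 775 (median 466). SST was lowest, from 169 to 363 CPM in young (median 333) and from 198 to 373 in old libraries (median 277). Medians in PV were 349 CPM in young (296 to 437) and 346 in old (261 to 521), and in VIP 369 in young (279 to 498) and 401 in old (162 to 633). The ranges of PYC and SST overlapped between 339 and 373 CPM.

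The log2 difference of Sort1 from the other types was 0.68 ± 0.089 in PYC (edgeR, adjusted p = 3.50e-10) and -0.55 ± 0.095 in SST (edgeR, adjusted p = 5.78e-06). It was -0.049 ± 0.094 in PV and -0.083 ± 0.092 in VIP, and neither passed. PYC exceeded SST by 0.92 ± 0.11 (adjusted p = 5.03e-11), VIP by 0.57 ± 0.11 (adjusted p = 7.24e-05) and PV by 0.55 ± 0.11 (adjusted p = 0.000111), all by edgeR. PV exceeded SST by 0.38 ± 0.11 (edgeR, adjusted p = 0.0181) and SST minus VIP was -0.35 ± 0.11 (edgeR, adjusted p = 0.0394), while PV and VIP did not differ beyond the test (0.026 ± 0.11, adjusted p = 0.940). The PYC and SST differences from the rest passed in each age alone (0.75 and -0.48 in young, 0.63 and -0.62 in old libraries). PV against SST was lost in young and in old libraries and with limma-voom (adjusted p = 0.516, 0.101 and 0.0560), SST against VIP in young libraries (adjusted p = 0.847) and with the astrocyte covariate (0.189), and PYC against VIP in old libraries (0.104).

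Ntf3, the ligand of TrkC, had counts in 5 of 20 PV libraries, 3 of 21 VIP, 1 of 21 PYC and 0 of 21 SST libraries. The young PV libraries with counts held 23.5 and 12.6 CPM (190 and 32 counts), and the 3 old ones 2.58, 2.25 and 1.81 CPM. In VIP, 1 young library held 5.44 CPM and 2 old ones 5.31 and 1.43 CPM. Summed over libraries, Ntf3 had 270 counts in PV, 96 in VIP, 1 in PYC and 0 in SST, where 3 counts would give 0.0176 CPM. It failed the filter on low counts. Without that filter Ntf3 passed against the other types in PV and VIP, where 4271 and 5312 of 40138 genes passed. With one that asked for 1 CPM in 6 libraries it also passed in both, beside 3821 and 3235 of 21510 genes.

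Ngfr, the p75 receptor, was counted in 10 of 83 libraries, and 5 of these were PYC pools. The highest values were 24.6 CPM in 1 young SST library, 22.4 in 1 old PYC, 12.7 in 1 young PYC and 11.1 in 1 young PV library. The other 6 lay between 0.0814 and 4.53 CPM. Most libraries of a type were at 0, including all 12 old VIP libraries. Ngfr also failed the filter, and passed without it in PYC and VIP against the other types. In these comparisons 4730 and 5312 of 40138 genes passed. Summed over libraries, Ngfr had 201 counts in PYC, 124 in PV, 106 in SST and 9 in VIP, the last all in 1 library. The 2 calls were thus of the types with the most and the fewest counts.

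Old and young libraries of a type were compared in a fit of that type alone, which asks whether ageing moved these genes. No gene of the whole table passed in any type with edgeR (0% of 12508 genes in PYC, 12564 in PV, 12805 in SST and 12337 in VIP). Unadjusted p-values under 0.05 were found for 364, 291, 368 and 368 genes. The fit of all 8 groups called 13 genes in PYC and 1 in PV, DESeq2 2 in PV and 1 in SST, and limma-voom 2 in PYC and 2 in PV, and none of the 6 genes was among them. Bdnf had a mean of 26.8 ± 22.0 CPM (SD, n = 9) in young and 16.7 ± 10.4 (n = 12) in old PYC libraries, a log2 difference of -0.64 ± 0.67 (edgeR, unadjusted p = 0.344 from the fit of all genes). It was -0.36 without young PYC library 3, -0.083 with the F number and -0.012 with limma-voom.

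In SST, Bdnf had a mean of 10.3 ± 15.7 CPM (SD, n = 9) in young and 2.40 ± 2.97 (n = 12) in old libraries, a log2 difference of -2.13 ± 1.29 (edgeR, unadjusted p = 0.106, adjusted p = 0.9999). One young library at 48.9 CPM carried much of it: without that library the log2 difference was -1.21. In VIP the log2 difference was 0.67 ± 1.33, and 1.67 without the young library at 31.5 CPM. In PV, Bdnf was not tested for age, with 3 of 8 young and 6 of 12 old libraries at 0.

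For the 3 abundant genes, no age difference passed. Ntrk2 differed by 0.091 ± 0.13 in PYC, -0.0056 ± 0.11 in PV, -0.11 ± 0.11 in SST and 0.20 ± 0.16 in VIP on the log2 scale, old minus young. Ntrk3 differed by 0.0030 ± 0.16 in PYC, -0.042 ± 0.13 in PV, 0.13 ± 0.16 in SST and 0.17 ± 0.15 in VIP. Sort1 differed by -0.12 ± 0.15 in PYC, -0.028 ± 0.13 in PV, -0.12 ± 0.15 in SST and 0.18 ± 0.18 in VIP. A p that misses the threshold does not show that the ages are alike.

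Whether the age difference itself differed between types was tested as an interaction over all groups. It passed for 3.13% of all genes and for none of the 4 tested members, with unadjusted p-values of 0.336 for Bdnf, 0.329 for Ntrk2, 0.731 for Ntrk3 and 0.469 for Sort1 from edgeR's fit of all genes. The smallest adjusted p was 0.960.

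**Figure D4:**
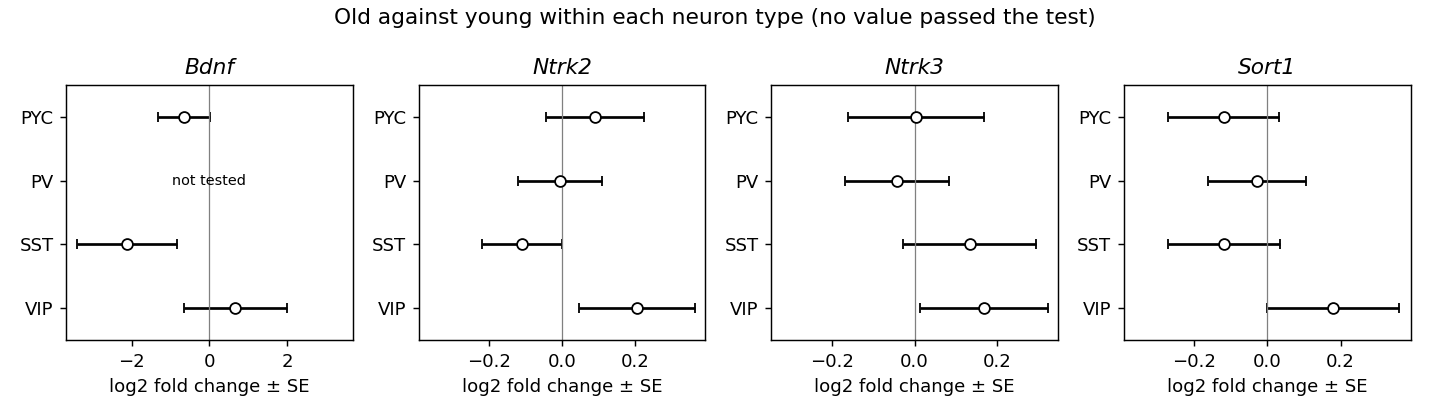
Log2 difference of old minus young libraries (horizontal axis, estimate ± SE) within each neuron type for the 4 genes tested. No value passed; Bdnf in SST (-2.13 ± 1.29) lies farthest from 0, Bdnf in PV was not tested, and the axes differ between genes.

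Around these 6 genes, 157 others of the pathway were followed in 7 lists, and 154 of them were tested. In PYC 28 were higher and 17 lower (29.2% of those tested, against 13.3% of all genes), in PV 15 and 31 (29.9% against 17%), in SST 8 and 13 (13.6% against 8.01%) and in VIP 9 and 8 (11% against 12%). For age, none of 147 to 150 tested genes passed in any type, with 3 to 7 at an unadjusted p under 0.05. The lists include Sst and Pvalb, whose stains chose the SST and PV cells. Their shares were not matched to other genes for abundance. In a fit of the 9604 genes at or above the median abundance, 1598 passed in PYC, 2180 in PV, 729 in SST and 1203 in VIP. Lists were chosen as known biology, with earlier results of these data known. Their counts are descriptions, and those of single lists below are to be read beside the shares of all genes given here.

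The list of proneurotrophin processing and sorting genes held the relatives of sortilin. Of 17 tested, 6 were higher and 2 lower in PYC, 2 and 7 in PV, 2 and 5 in SST, and 6 and 2 in VIP. The median log2 difference of the list was 0.27 in PYC and -0.66 in PV, beside 0.0085 and -0.046 over all genes. Sorcs3, a sortilin family receptor, had 186 ± 69.3 CPM in VIP, 73.8 ± 33.8 in PYC, 26.9 ± 16.1 in SST (SD, n = 21 each) and 13.2 ± 13.9 in PV (n = 20), and was higher in VIP (log2 2.60 ± 0.24, edgeR adjusted p = 5.77e-15). Sorcs1 was higher in VIP by 1.64 ± 0.18 (edgeR, adjusted p = 2.27e-12) and Sorcs2 by 1.18 ± 0.18 (adjusted p = 9.55e-08). In PV, Sorcs1 (-1.69 ± 0.22) and Sorcs3 (-2.45 ± 0.32) were lower. The mean level of Sort1 was highest in PYC and that of Sorcs1, Sorcs2 and Sorcs3 in VIP.

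Proprotein convertase 2 (Pcsk2), a protease of the regulated secretory pathway, was higher in PYC (1.31 ± 0.11, edgeR adjusted p = 6.11e-19) and lower in PV (-1.30 ± 0.14, adjusted p = 1.70e-14). Sorl1, a sorting receptor related to sortilin, was higher in PYC by 0.91 ± 0.078 (adjusted p = 2.55e-19), and Cadps2, a dense-core vesicle release factor, by 1.11 ± 0.20 (adjusted p = 1.22e-05). Hap1, the huntingtin-associated protein that takes part in proBDNF transport, was lower in PV (-1.92 ± 0.24, adjusted p = 2.19e-10). Serpini1, the protease inhibitor neuroserpin, was higher in SST (1.04 ± 0.11, adjusted p = 9.01e-13) and lower in VIP (-1.05 ± 0.13, adjusted p = 6.21e-11) and PYC (-0.70 ± 0.12, adjusted p = 4.77e-06), all by edgeR.

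Several partners of p75 were higher in pyramidal pools. Ngfr itself was at 0 in 16 of 21 PYC, 18 of 20 PV, 19 of 21 SST and 20 of 21 VIP libraries. Of 25 partners tested, 5 were higher and 1 lower in PYC, 3 and 3 in PV, 1 and 3 in SST, and 0 and 2 in VIP. The count in VIP lies under the 12% of all genes that passed there. The list's median in PYC was -0.027, beside 0.0085 over all genes, so the higher genes did not move the list as a whole. Lingo1, a coreceptor of p75 in the Nogo receptor complex, was higher in PYC by 1.72 ± 0.10 (edgeR, adjusted p = 3.82e-30), and the Nogo receptor genes Rtn4r and Rtn4rl2 by 1.94 ± 0.28 (adjusted p = 1.53e-08) and 2.21 ± 0.38 (adjusted p = 2.70e-06). Lingo1 was lower in PV (-0.97 ± 0.12) and SST (-0.85 ± 0.12), and Rtn4r was lower in PV (-1.36 ± 0.34), a call lost in old libraries (adjusted p = 0.318) and with the astrocyte covariate (0.0969).

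Of 23 tested regulators of Bdnf transcription, 5 were higher and 4 lower in PYC, 4 and 5 in PV, 1 and 2 in SST, and 1 and 3 in VIP. Camk4, a kinase that phosphorylates CREB, had 346 ± 128 CPM in PYC and 107 ± 31.8 in PV, and was higher in PYC (1.49 ± 0.11, edgeR adjusted p = 3.88e-22) and lower in PV (-0.81 ± 0.13) and SST (-0.77 ± 0.13), the last not in young libraries alone (adjusted p = 0.128). Crtc1, a coactivator of CREB, was lower in PV (-0.79 ± 0.15, adjusted p = 1.59e-05). Ppargc1a, a transcriptional coactivator, and Fndc5, one of its targets, went the other way: they were higher in PV by 1.78 ± 0.15 (adjusted p = 3.65e-20) and 1.35 ± 0.20 (adjusted p = 2.29e-08) and lower in PYC, at -1.23 ± 0.17 and -1.38 ± 0.23.

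**Figure D5:**
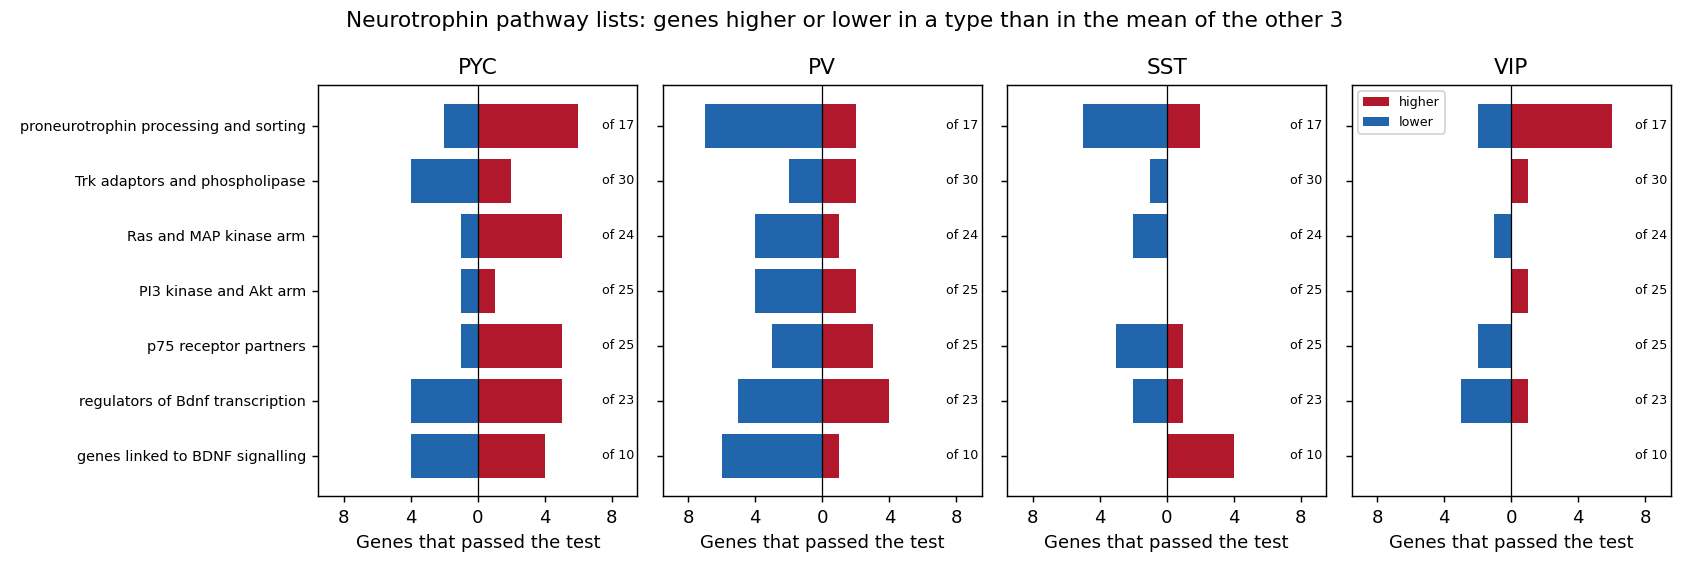
Number of genes of each pathway list (rows) that were higher (red, right) or lower (blue, left) in a neuron type than in the mean of the other 3, with the number tested at the right. The list of processing and sorting genes has 6 higher genes in PYC and in VIP and 7 lower genes in PV.

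Downstream of the Trk receptors, 3 lists held signalling genes. Over all genes, 13.3% passed in PYC, 17% in PV, 8.01% in SST and 12% in VIP. The counts below of adaptors in PV, SST and VIP lie under these shares. So do those of the PI3 kinase and Akt arm in PYC, SST and VIP. In the Ras and MAP kinase arm, 5 of 24 were higher and 1 lower in PYC, and 1 higher and 4 lower in PV. Map2k1, a kinase of this arm, was higher in PYC (0.87 ± 0.16, edgeR adjusted p = 7.51e-06) and lower in PV (-0.82 ± 0.18, adjusted p = 0.000208), while Rps6ka2, a ribosomal S6 kinase, was lower in PYC (-0.82 ± 0.16, adjusted p = 4.73e-05) and higher in PV (0.50 ± 0.15, adjusted p = 0.0115). Rps6ka2 did not pass in PV in young (adjusted p = 0.352) or old libraries alone (0.0907), nor in PYC in old ones (0.0561), and Map2k1 did not pass in PYC in young ones (0.0535). In the PI3 kinase and Akt arm, 1 of 25 was higher and 1 lower in PYC, 2 and 4 in PV, 0 and 0 in SST and 1 and 0 in VIP. Akt1 was higher in PV (0.87 ± 0.14) and lower in PYC (-0.61 ± 0.15), the latter not in either age alone (adjusted p = 0.0501 in young and 0.129 in old libraries). Of 30 adaptors, 2 were higher and 4 lower in PYC, 2 and 2 in PV, 0 and 1 in SST, and 1 and 0 in VIP; Plcg1, the phospholipase that TrkB activates, was higher in PV (0.50 ± 0.13, edgeR adjusted p = 0.00144). That call was lost with the astrocyte covariate (adjusted p = 0.108) and in young (0.0653) or old libraries (0.126) alone. The largest called differences in these lists were of Eif4ebp1, a repressor of translation (-4.59 ± 1.24 in PV and 2.90 ± 0.79 in VIP), and Plcg2, a phospholipase (-2.84 ± 1.02 in PV and 2.18 ± 0.74 in VIP). All 4 were lost under several alternatives, among them the astrocyte covariate (adjusted p = 0.258, 0.517, 0.194 and 0.252), and Plcg2 in PV was 0.19 in old libraries.

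The last list held 10 genes linked to BDNF signalling, several of them markers of the types themselves. In PYC 4 were higher and 4 lower, in PV 1 and 6, in SST 4 and 0 and in VIP 0 and 0 by edgeR. Npy and Cort are also in the SST marker list, whose sum was high in old VIP libraries 9 and 11. In VIP, Npy (0.98 ± 0.35, adjusted p = 0.0529) passed with DESeq2 (0.0379), RLE factors (0.0362), the CPM filter (0.0401), among abundant genes (0.0402) and with edgeR's newer method (0.00917), and Cort (1.29 ± 0.60, adjusted p = 0.163) passed with DESeq2 (2.98e-05) but was -1.39 with limma-voom. In PYC, Egr1 (1.57 ± 0.16), Homer1 (0.89 ± 0.12) and Nptx2 (1.65 ± 0.31) were higher and the peptide gene Npy (-3.27 ± 0.46) was lower. In SST, Sst (5.28 ± 0.35), Npy (3.75 ± 0.34), Cort (2.995 ± 0.67) and Vgf (0.70 ± 0.18) were higher, and Sst was the stain that chose these cells. Cort did not pass in old libraries alone (adjusted p = 0.551), Vgf in young (0.242) or old (0.0870) ones, and Npy in PYC with limma-voom (0.0650). For age, Egr1 and Arc, which neuronal activity induces, had the smallest p of the list in PYC (log2 -0.90 ± 0.24, unadjusted p = 0.000562, and -0.76 ± 0.27, unadjusted p = 0.00767, from edgeR's fit of all genes), and neither passed after adjustment (adjusted p = 0.9998). Without the filter on low counts both passed (adjusted p = 0.0101 each), in a fit that called 6505 of 31951 genes. Creb1 in VIP had a log2 difference of 1.15 ± 0.42 (unadjusted p = 0.00961), which did not pass either.

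Genes whose log2 CPM ran most like that of a member were looked up over all 83 libraries among 9041 genes no less abundant than the median gene. For Ntrk3 these included Lancl1 (Pearson r 0.72) and Kcnip2 (0.67), with r of 0.96 and 0.99 over the 8 group means. For Sort1 they were Cyfip2 (0.68), Phyhip (0.66) and Atp2b1 (0.64), with 0.92, 0.87 and 0.91 over group means. For Ntrk2 they were Synrg (0.48), Abcc5 (0.46) and Fam69a (0.43), with 0.22, 0.90 and 0.87. Both genes of a pair were measured in the same libraries, which differ in type and depth, so these values describe likeness only. Bdnf lay just under the median abundance (an average log2 CPM of 3.26 against 3.35) and was not looked up.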

How the data were processed

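RNA of 83 neuron pools was sequenced as stranded total RNA libraries, per the labels' protocols. The authors deposited raw counts per Ensembl gene. The submitters' processing notes name HISAT2 and GRCm38. The sources used here do not say what counted the reads, with which annotation, or whether by strand. Of 48795 genes, 48349 matched a symbol. Counts were tested with edgeR 4.0.16 in R 4.3.3 (quasi-likelihood F-test with robust estimation in its default legacy form, TMM, genes kept by filterByExpr at a count of at least 10), with 2-sided p-values adjusted by Benjamini-Hochberg over all genes tested and a threshold of 0.05. Standard errors come from the F statistic. Age was fitted within each type, and types and the interaction in 1 fit of 8 groups. limma 3.58.1 and DESeq2 1.42.0 were alternatives. Relations used 100000 permutations in SciPy 1.17.1. The fits were tested on simulated data. Counts without molecular identifiers give intervals of counting error only. Members and lists were chosen with earlier results of these data known. For each pathway list and comparison, up to 4 genes with the smallest p among those that passed could be named, or up to 2 that did not pass. Libraries within a group are numbered in accession order. Some items are not reported here.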

Additional observations from a re-analysis of the deposited data

Results flagged for a closer look

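In young groups of 8 or 9 libraries, a value was picked out where its gap to the nearest library took more than Dixon's 95% share of the group's range. Of 22 groups with any spread, 8 held such a value, and old groups of 12 were not tested. Dixon's share assumes normally distributed values, which sparse counts such as those of Ngfr are not. The number was therefore not set against chance. A library that alone held counts in its group was picked out by construction. All 8 were in Bdnf, Ngfr or Ntf3 and none in Ntrk2, Ntrk3 or Sort1. For Bdnf they were 5.07 CPM in young PV library 7 (next highest 1.74), 48.9 CPM in young SST library 9 (next 19.2) and 31.5 CPM in young VIP library 9 (next 13.9). For Ngfr they were 11.1 CPM in young PV library 6, 12.7 in young PYC library 6, 24.6 in young SST library 3 and 1.68 in young VIP library 5, each beside libraries at 0 or, in PYC, at most 0.0814. For Ntf3 it was 5.44 CPM in young VIP library 4, with the other 8 at 0. These are single pools of 125 cells, and their cause was not tested.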

How the results depend on the processing

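The 6 member calls of a type against the rest, the 12 calls between types, and the 0 calls for age and for the interaction stayed within 1.5 times under the alternatives run, with these exceptions. Without a filter on low counts there were 2 age calls (Ngfr in PV and in VIP, in fits that called 6355 of 30475 and 7117 of 33218 genes, beside 0 in the fits reported) and 10 calls against the rest; a filter of 1 CPM in 6 libraries also gave 10, from Ntf3 and Ngfr. In young libraries alone the calls between types numbered 7. Leaving out each library gave 6 calls against the rest and 0 for age throughout, keeping the genes tested and, for types, the dispersion trend; it was not run for pairs or the interaction. No paired analysis was possible because the labels tie no library to a mouse. The planned legacy quasi-likelihood method is the default of this version, so it equals the reported fit; edgeR's newer method was added after seeing the data. The background of the interaction was 601 genes, and 1 with that method, 8 with limma-voom, 315 with the F number, 1 among genes no less abundant than the median gene, 1854 with the CPM filter and 7680 unfiltered. Other counts over all genes moved past 1.5 times mainly without the filter, within one age and with fewer genes tested (for PYC against the rest 2560 became 4730, 769 in young, 1062 in old and 1598 among abundant genes). The astrocyte covariate also moved them: 3273 became 2055 for PV and 2299 became 1515 for VIP against the rest. For PV against VIP, 3228 became 1842 with it. VIP against the rest was 1473 with limma-voom, and SST against VIP went from 1274 to 2012 with the CPM filter.

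Values that changed sign were uncalled, except Plcg2 in PV (-2.84, called), and the cause was not tested; Cort in VIP was 1.29. Ntrk3 for age in PYC was -0.021 with RLE factors, -0.0011 unfiltered, -0.020 with limma-voom, -0.042 with the F number, -0.00027 with the library total, -0.056 without low-mitochondrial libraries, -0.021 with DESeq2, -0.0012 with the newer method and -0.0063 in the fit of 8 groups. For age in PV, Ntrk2 was 0.013 (RLE), 0.00073 (unfiltered) and 0.012 (DESeq2), and Sort1 0.032 (F number). Ntrk3 for age in SST was -0.0060 (library total) and Bdnf for age in VIP -0.00048 (newer method). Against the rest, Ntrk3 in VIP was 0.059 (RLE), 0.0048 (unfiltered), 0.020 (CPM filter), 0.0061 (astrocyte markers), 0.010 (without low-mitochondrial libraries), 0.059 (DESeq2), 0.029 (abundant genes) and 0.080 (old). In young libraries Ntrk2 was 0.00014 in PV and -0.039 in VIP, and Bdnf 0.74 in SST and -0.21 in VIP. In old libraries Ntrk2 was -0.045 in SST, Sort1 0.069 in VIP and Plcg2 0.19 in PV. Sort1 in PV was 0.052 (astrocyte markers), and Bdnf -0.037 and Cort -1.39 in VIP (limma-voom). Where leaving out a library reversed a value, it lay from 0.0055 to 0.0084 for Ntrk2 in PV against the rest, 0.0051 to 0.051 for Ntrk2, 0.0049 to 0.046 for Ntrk3 and 0.0038 to 0.053 for Sort1 for age in PV, -0.081 to -0.0035 for Ntrk3 for age in PYC, and 8.0e-06 to 0.028 for Ntrk3 in VIP. Levels on the TMM effective library size stayed within 1 SD of the group for all 48 pairs of member and group. This rule was loose for sparse genes, whose SD could exceed the mean (Ntf3 in PV 2.14 ± 5.78 CPM over both ages, SD, n = 20). Libraries without counts limit the precision for Bdnf in PV (9 of 20), Ntf3 and Ngfr. Unfiltered age fits also called pathway genes, among them Egr1, Arc and Pcsk1 in PYC and Plcg1 in VIP (adjusted p = 0.0101, 0.0101, 0.0314 and 0.0396).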
